A study of Homo sapiens with 12 samples.

Results

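PLA2G2A and 4 related phospholipase genes, PLA2G4A, PLA2G6, PLA2G7 and PLAAT3 (formerly PLA2G16), were followed in nicotine-exposed and untreated prostate cancer cells. PLA2G2A was chosen by its own values, the strongest rise after nicotine in LnCaP, and the others were taken as its relatives in the phospholipase A2 superfamily. Every probe set annotated to these genes was used, which gave 7 of the 22277 probe sets of the array and 5 of the 11963 genes with a single symbol. PLA2G6 had 3 probe sets and each other gene had 1.

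The 4 groups were LnCaP cells given 100 µM nicotine, as its tartrate salt, for 24 h, LnCaP cells left untreated, and the same treatment and control in 22RV1 cells, with 3 arrays in each group and 12 in all. LnCaP is an androgen-responsive line from a lymph node metastasis, and 22RV1 comes from a prostate tumour xenograft that regrew after castration. Each is a single established line, no vehicle or tartrate control is named, and nothing in the labels says that replicates came from different cultures. Every p-value here is set against array-to-array spread that may be technical only.

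Phospholipases A2 cut membrane phospholipids at the middle (sn-2) position of glycerol and release a fatty acid, often arachidonic acid, and a lysophospholipid. Arachidonic acid feeds the cyclooxygenase and lipoxygenase routes to prostaglandins and leukotrienes. The genes studied here cover the main enzyme classes. PLA2G2A encodes the small calcium-dependent secreted group IIA enzyme, an acute-phase and antibacterial protein that is also known from prostate tumours. PLA2G4A encodes the cytosolic, calcium-regulated enzyme with a preference for arachidonate, and PLA2G6 the calcium-independent enzyme of membrane remodelling. PLA2G7 encodes the secreted acetylhydrolase that inactivates platelet-activating factor, and PLAAT3 a membrane-bound enzyme with phospholipase and acyltransferase activity that is abundant in fat tissue.

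The promoters are shown because PLA2G2A and PLA2G7 differed most between the lines, in opposite directions. PLAAT3 was added for its small nicotine values of opposite sign in the lines, although its groups overlapped in both. All 5 genes were found in the RefSeq promoter table (GRCh38.p14), with 9 start sites in all, of which PLA2G2A had 3, PLA2G7 and PLAAT3 had 2 each, and PLA2G4A and PLA2G6 had 1 each. The window listed first for each gene is printed, 250 bases before to 50 after the start, read 5′ to 3′ on the minus strand. Capitals mark matches to the motifs named in the next paragraph.
PLA2G2A, chr1:19979610-19979909: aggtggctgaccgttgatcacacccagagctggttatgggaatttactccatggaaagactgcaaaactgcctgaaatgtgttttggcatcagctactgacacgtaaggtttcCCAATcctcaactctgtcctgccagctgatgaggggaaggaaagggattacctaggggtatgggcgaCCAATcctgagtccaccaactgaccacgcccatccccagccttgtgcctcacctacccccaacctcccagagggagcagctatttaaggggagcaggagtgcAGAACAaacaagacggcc
PLA2G7, chr6:46735672-46735971: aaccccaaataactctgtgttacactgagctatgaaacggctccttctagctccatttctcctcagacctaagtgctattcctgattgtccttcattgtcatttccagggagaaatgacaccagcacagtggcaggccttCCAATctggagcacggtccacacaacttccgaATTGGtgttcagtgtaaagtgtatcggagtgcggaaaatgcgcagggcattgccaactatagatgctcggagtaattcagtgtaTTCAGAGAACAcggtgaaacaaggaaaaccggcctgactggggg
PLAAT3, chr11:63614388-63614687: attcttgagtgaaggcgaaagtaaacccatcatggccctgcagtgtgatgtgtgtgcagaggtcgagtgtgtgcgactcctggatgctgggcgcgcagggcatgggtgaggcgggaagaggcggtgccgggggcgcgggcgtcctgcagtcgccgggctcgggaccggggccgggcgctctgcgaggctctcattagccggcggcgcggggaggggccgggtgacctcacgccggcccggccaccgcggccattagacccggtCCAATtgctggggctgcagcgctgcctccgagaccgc

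There were 7 motifs searched on both strands: the TATA box (TATAAA), the CCAAT box (CCAAT), a steroid receptor half-site (AGAACA), AP-1 (TGACTCA or TGAGTCA), C/EBP (TTGCNNAA), STAT (TTCNNNGAA) and a sterol regulatory element (TCACNCCAC). The PLA2G2A window held 2 CCAAT boxes, at bases 114 to 118 and 181 to 185 counted from its 5′ end, and an AGAACA at bases 283 to 288. The PLA2G7 window held a CCAAT box on each strand, an AGAACA at bases 262 to 267 and a STAT match at bases 257 to 265, which overlaps the AGAACA. The PLAAT3 window held 1 CCAAT box. Of 34943 promoter windows of this length, 34.6% held CCAAT, 14.8% held AGAACA and 7.66% held the STAT motif, so matches of this kind are common among promoters. The promoters differ in CpG content. The printed PLA2G2A window has 5 CpG and that of PLA2G4A has 3, against a median of 14 over all windows, while the PLA2G6 window has 25 and the PLAAT3 window 32. PLA2G7 has 9 in the printed window and 27 in its second.

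The deposited values are log2 expression, and all levels and differences below are on that scale. Array medians lay between 6.61 and 6.71, arrays of a group correlated at 0.992 or above, and the 4 arrays numbered 3 held 47.2% of the residual sum of squares. Of 11 prostate epithelial markers 8 were measured, with a mean level of 10.85 to 11.07 in the LnCaP nicotine arrays and 10.98 to 11.06 in the LnCaP untreated arrays, against 9.70 to 10.22 in the 22RV1 nicotine arrays and 9.74 to 10.36 in the 22RV1 untreated arrays. The mean level of 4 measured leukocyte markers stayed between 4.21 and 4.49 over all arrays, and that of 3 basal markers between 4.25 and 4.58. The 6 Paneth and gut markers, which stand for a normal source of PLA2G2A, averaged 4.71 to 4.86 in the LnCaP nicotine arrays and 4.79 to 5.0 in the LnCaP untreated arrays. The 6 mesenchymal markers averaged 5.64 to 5.97 and 5.55 to 5.99 in those groups. Both lists averaged higher in 22RV1. There the gut markers were at 5.28 to 5.53 with nicotine and 5.34 to 5.46 untreated, and the mesenchymal markers at 6.45 to 6.70 and 6.39 to 6.75. The gut marker VIL1 stood at 8.25 in untreated 22RV1 and 4.47 in untreated LnCaP, while the other 5 gut markers differed the opposite way and were not called. For each of these lists the LnCaP nicotine arrays overlapped the LnCaP untreated arrays. The 8 epithelial markers had log2 fold changes from -0.77 to 0.50 in LnCaP, 4 positive and 4 negative. KLK2 was the lowest (limma adjusted p = 0.48, and adjusted p = 0.0156 with the replicate number as a block). FOLH1 was the highest (limma adjusted p = 0.411, and adjusted p = 0.192 with the block). The part of these markers in the results was not tested.

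PLA2G2A, the secreted group IIA enzyme, had the largest fold change of the 5 genes after nicotine, in LnCaP. Its level was 10.14, 10.78 and 10.84 in the LnCaP nicotine arrays and 8.42, 9.43 and 8.82 in the LnCaP untreated arrays. Every nicotine array lay above every untreated array. The log2 fold change was 1.69 ± 0.23 (SE, n = 3 per group), a 3.23-fold higher level. Arrays of the same replicate number differed by 1.71, 1.35 and 2.02. This was the second largest log2 fold change of all 22277 probe sets and the largest of the 11963 genes with a single symbol. These values chose the gene, so they are a description and carry no test. In bulk RNA, more cells that express the gene and more RNA per cell cannot be told apart.

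In 22RV1 no change of PLA2G2A was detectable. PLA2G2A stood at 5.27, 5.27 and 5.44 in the 22RV1 nicotine arrays and 5.31, 5.07 and 5.39 in the 22RV1 untreated arrays, and the groups overlapped. The log2 fold change was 0.071 ± 0.23 (SE, n = 3 per group; limma adjusted p = 0.999), with a 95% interval of -0.43 to 0.58. The 22RV1 arrays played no part in choosing the gene. Its level ranked between 29.1% and 34.2% of the way up the values of each 22RV1 array, a rank that also depends on how well the probes bind. The table has no detection calls, so it is not known whether the transcript was above background there. The difference of both effects, LnCaP minus 22RV1, was 1.62 ± 0.33, and it contains the contrast that chose the gene.

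**Figure D1:**
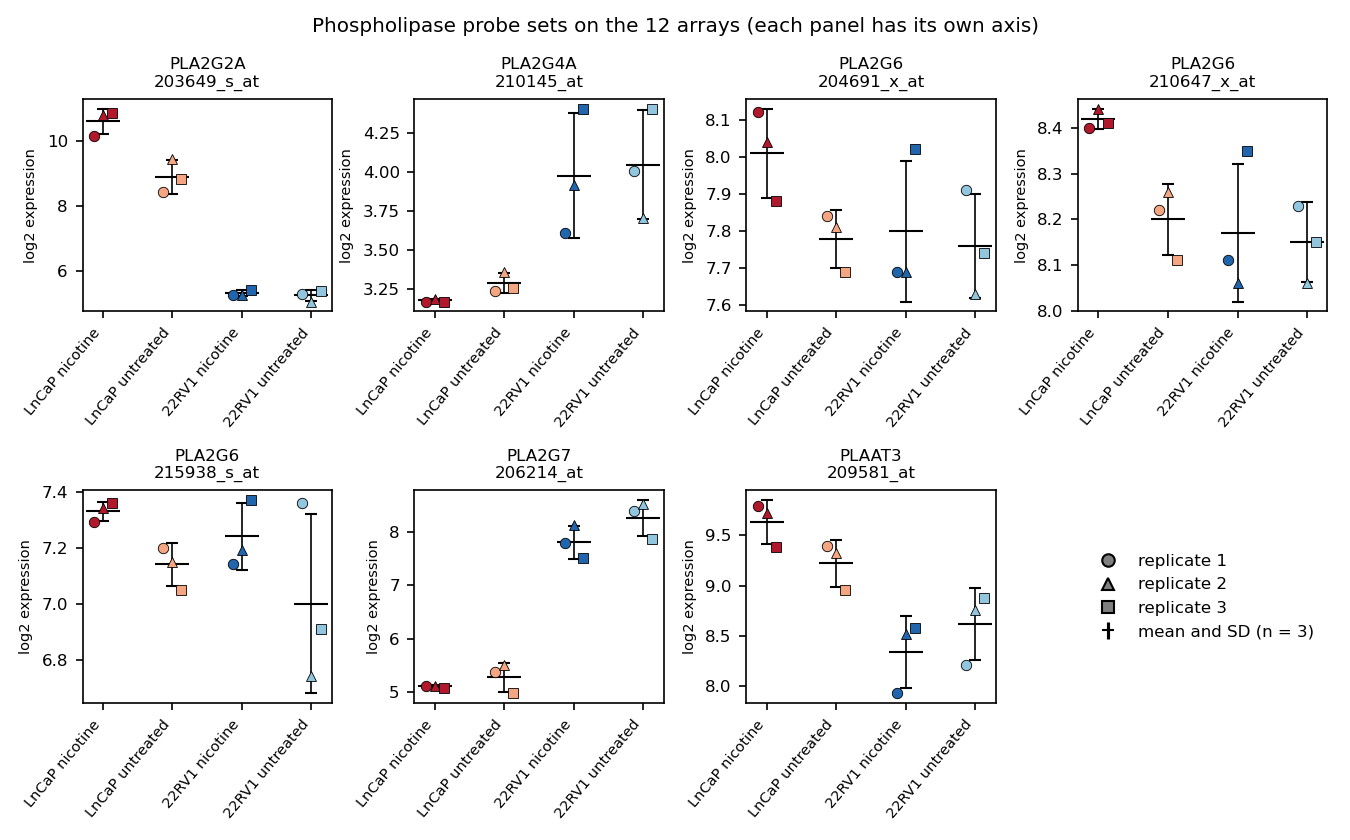
Log2 expression of the 7 phospholipase probe sets (vertical axes, each panel on its own range) in the 4 groups, with 1 symbol per array, its shape giving the replicate number, and bars for the mean and SD of 3 arrays. The LnCaP nicotine arrays of PLA2G2A sit between 10.14 and 10.84, above the LnCaP untreated arrays at 8.42 to 9.43, and all 6 arrays of 22RV1 lie between 5.07 and 5.44.

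The arrays of PLA2G2A scattered more in LnCaP than in 22RV1. The SD was 0.39 in LnCaP nicotine and 0.51 in LnCaP untreated arrays, against 0.099 in 22RV1 nicotine and 0.17 in 22RV1 untreated arrays. The fit gives all groups 1 shared spread. Fitted on the 6 arrays of a line alone, the SE was 0.27 in LnCaP and 0.11 in 22RV1. With the replicate number as a block it was 0.12 in both. Leaving out single arrays moved the LnCaP log2 fold change between 1.46 and 1.96, and without the arrays numbered 3 it was 1.53 ± 0.30.

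**Figure D2:**
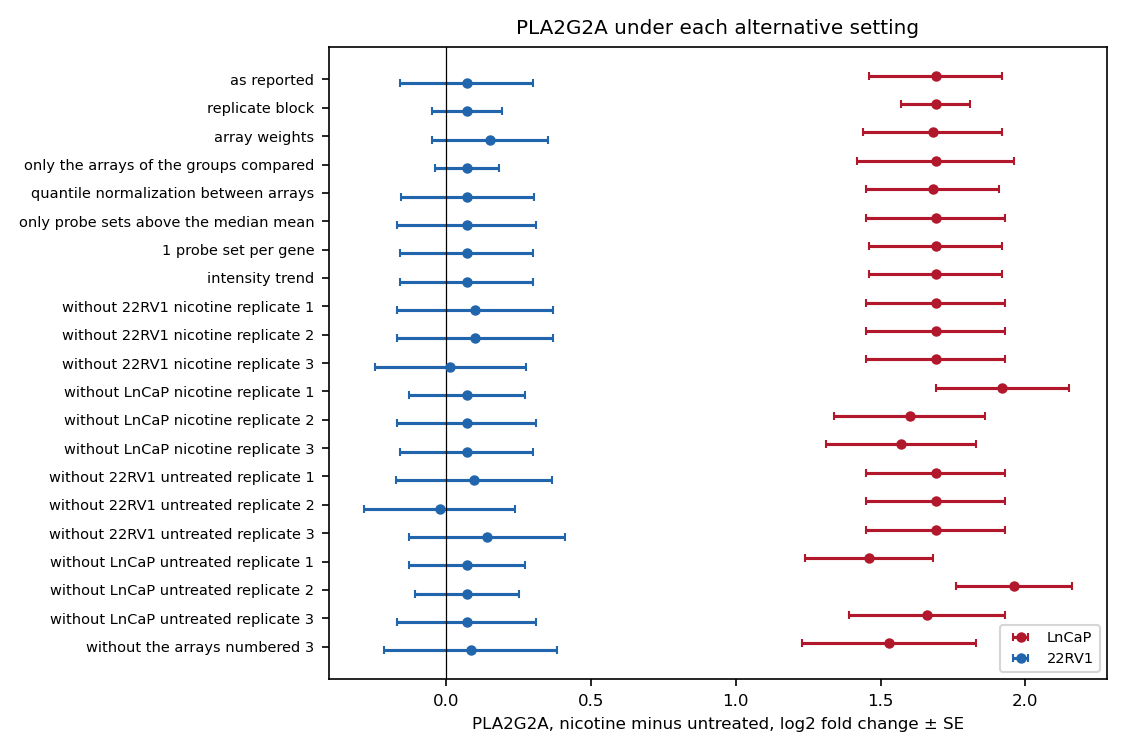
PLA2G2A log2 fold change, nicotine minus untreated, with its SE (horizontal axis) in LnCaP and 22RV1 under each setting of the analysis (rows). The LnCaP values run from 1.46 to 1.96 and the 22RV1 values from -0.023 to 0.15.

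PLAAT3, the membrane-bound enzyme, had small values of opposite sign in the lines. It stood at 9.79, 9.72 and 9.38 in the LnCaP nicotine arrays and 9.39, 9.32 and 8.96 in the LnCaP untreated arrays. The groups overlapped, since the lowest nicotine array (9.38) fell just under the highest untreated array (9.39). Differences of same-numbered arrays were nonetheless nearly alike, at 0.39, 0.40 and 0.42, and the log2 fold change was 0.40 ± 0.21 (SE 0.067 with the replicate block). In 22RV1, PLAAT3 stood at 7.93, 8.52 and 8.58 in the nicotine arrays and 8.21, 8.76 and 8.88 in the untreated arrays. The nicotine array was lower in each same-numbered pair, with differences of -0.28, -0.24 and -0.30, while the groups overlapped. The 22RV1 log2 fold change of -0.27 ± 0.21 did not pass (limma adjusted p = 0.999, and adjusted p = 0.228 with the replicate block).

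PLA2G7, the acetylhydrolase of platelet-activating factor, had negative values in both lines. In LnCaP it stood at 5.12, 5.12 and 5.08 in the nicotine arrays and 5.37, 5.51 and 4.98 in the untreated arrays, and the groups overlapped (log2 fold change -0.18 ± 0.19). In 22RV1 it stood at 7.78, 8.13 and 7.5 in the nicotine arrays and 8.38, 8.51 and 7.86 in the untreated arrays. The nicotine array was lower in all 3 same-numbered pairs of 22RV1, with differences of -0.60, -0.38 and -0.36, and the groups overlapped. The log2 fold change there was -0.45 ± 0.19, with a limma adjusted p = 0.958, and an adjusted p = 0.206 with the replicate block, so it did not pass.

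The 3 probe sets of PLA2G6, the calcium-independent enzyme, had small values of the same sign in LnCaP. The log2 fold changes were 0.23 ± 0.11 (204691_x_at), 0.22 ± 0.089 (210647_x_at) and 0.19 ± 0.13 (215938_s_at) there. PLA2G6 210647_x_at stood at 8.40, 8.44 and 8.41 in the LnCaP nicotine arrays and 8.22, 8.26 and 8.11 in the LnCaP untreated arrays. All 3 probe sets had groups that did not overlap in LnCaP. In 22RV1 they had values of 0.041, 0.024 and 0.23, all with overlapping groups and limma adjusted p-values of 0.987 to 0.999. The name ending _x_at marks probes that may bind other transcripts, and the 3 probe sets share a gene and are not separate evidence.

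PLA2G4A, the cytosolic arachidonate-releasing enzyme, had readings at the bottom of the scale in LnCaP. It stood at 3.17, 3.19 and 3.17 in the LnCaP nicotine arrays and 3.24, 3.36 and 3.26 in the LnCaP untreated arrays. These values lie within the lowest 3.27% of each LnCaP array, and the nicotine arrays were all below the untreated arrays, with a log2 fold change of -0.11 ± 0.19. No detection call says whether these readings exceed background. In 22RV1 it stood at 3.61, 3.92 and 4.41 in the nicotine arrays and 4.01, 3.71 and 4.41 in the untreated arrays, with overlapping groups and a log2 fold change of -0.065 ± 0.19 (limma adjusted p = 0.999).

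Counted over the 7 probe sets, limma called 1 for nicotine in LnCaP at an adjusted p under 0.05, against 0.471% of all probe sets (105, of which 25 were higher and 80 lower). With the replicate block it called 2, PLA2G2A and PLAAT3, against 3.8% of all probe sets (847). Groups that did not overlap were seen for 5 of the 7 in LnCaP, against 15.3% of all probe sets. These counts rest on the contrast used to choose PLA2G2A, and nothing is read from them. For nicotine in 22RV1, limma called 0 of the 7 and 0% of all probe sets, with or without the replicate block. At an unadjusted p under 0.05 there were 1 of the 7, PLA2G7, and 1148 of all. No member had groups that did not overlap in 22RV1, against 11.3% of all probe sets. The median log2 fold change of the 7 was 0.22 in LnCaP and 0.024 in 22RV1, against 0.0034 and -0.0023 over all probe sets.

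**Figure D3:**
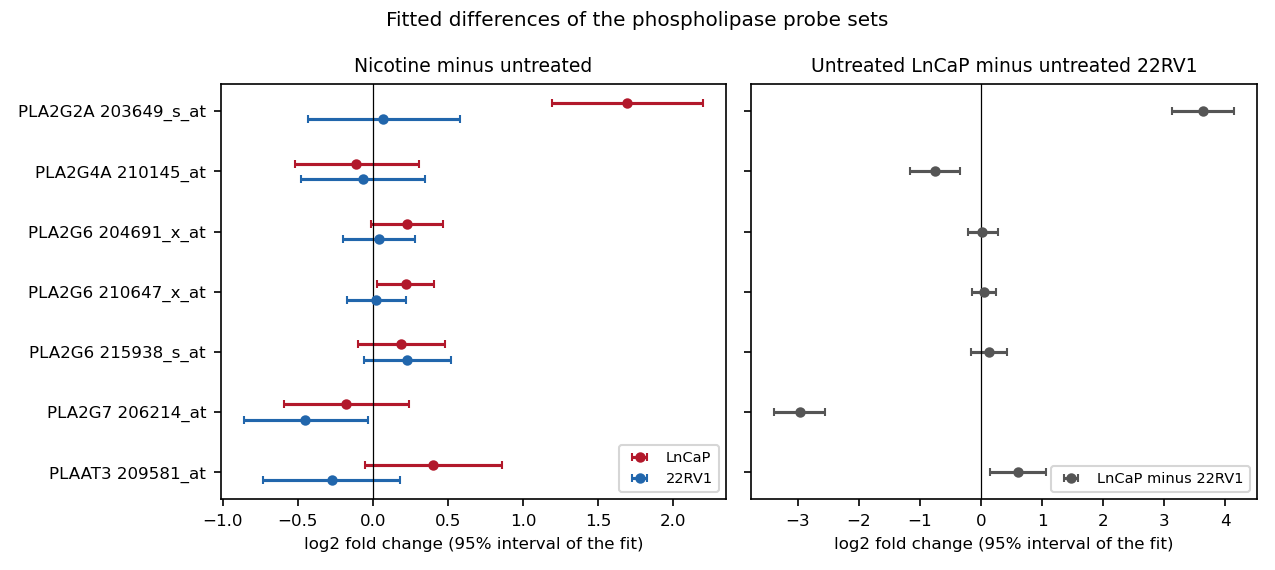
Fitted log2 fold changes with 95% intervals (horizontal axes) for the 7 phospholipase probe sets (rows), nicotine minus untreated in each line on the left and untreated LnCaP minus untreated 22RV1 on the right. PLA2G2A lies at 1.69 in LnCaP and 0.071 in 22RV1, and the lines differ by 3.64 for PLA2G2A and -2.97 for PLA2G7.

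Without nicotine, the lines differed most in the genes of the secreted enzymes, in opposite directions. PLA2G2A was 12.4-fold higher in untreated LnCaP, at 8.89 ± 0.51, than in untreated 22RV1, at 5.26 ± 0.17 (SD, n = 3 each). The log2 difference was 3.64 ± 0.23 (SE; limma adjusted p = 1.08e-07). PLA2G7 went the other way and was 7.83-fold lower in untreated LnCaP, at 5.28 ± 0.27, than in untreated 22RV1, at 8.25 ± 0.34, with a log2 difference of -2.97 ± 0.19 (limma adjusted p = 1.14e-07). Neither pair of groups overlapped, as for 4 of the 7 probe sets and 52.3% of all probe sets. This comparison shares the untreated LnCaP arrays with the contrast that chose PLA2G2A. PLA2G7 ranked between 27.9% and 36.1% of the way up the untreated LnCaP arrays. Whether it exceeded background there, or PLA2G2A in 22RV1, is not known, so both folds hold for the deposited values only.

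PLA2G4A was also lower in untreated LnCaP, at 3.29 ± 0.066, than in untreated 22RV1, at 4.05 ± 0.35 (SD, n = 3 each; log2 difference -0.76 ± 0.19, limma adjusted p = 0.00609). PLAAT3 was higher in untreated LnCaP, at 9.22 ± 0.23, than in untreated 22RV1, at 8.62 ± 0.36 (log2 difference 0.61 ± 0.21, limma adjusted p = 0.0321). The PLAAT3 difference no longer passed without 22RV1 untreated replicate 1 (0.41, limma adjusted p = 0.145), LnCaP untreated replicate 1 (0.52, 0.108) or LnCaP untreated replicate 2 (0.56, 0.0909). PLA2G6 did not pass on any of its probe sets, with log2 differences of 0.024, 0.053 and 0.13 and 95% intervals that together run from -0.22 to 0.42, although 215938_s_at passed without 22RV1 untreated replicate 1 (0.31, limma adjusted p = 0.0241). In all, 4 of the 7 probe sets differed between the untreated lines, 2 higher and 2 lower in LnCaP, against 43.7% of all probe sets (22.8% higher and 20.9% lower). A line difference as such is therefore common on these arrays.

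Taking the 4 groups together, the levels of PLA2G2A fell in the order LnCaP nicotine, LnCaP untreated, 22RV1 nicotine and 22RV1 untreated, with means of 10.59, 8.89, 5.33 and 5.26. The 22RV1 groups, neighbours in that order, did not differ beyond their spread. For PLA2G7 the order was turned round, with 5.11 in LnCaP nicotine, 5.28 in LnCaP untreated, 7.80 in 22RV1 nicotine and 8.25 in 22RV1 untreated cells, and the neighbouring groups within each line overlapped.

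Around the 5 genes, 7 lists of related genes were examined, covering other phospholipases A2, recycling of arachidonate and lysolipids, prostaglandin and leukotriene enzymes, their receptors and transporters, annexins and acute-phase genes. Of 142 listed genes 121 were measured, each by its probe set with the highest mean. For nicotine in LnCaP, limma called 0 of the 121, against 0.577% of all genes, with 7 at an unadjusted p under 0.05, against 12.2% of all genes. With the replicate block 1 was called, HPGD, against 4.56% of all genes. For nicotine in 22RV1 limma called 0 of the 121 and 0% of all genes with either fit, and 5 had an unadjusted p under 0.05, against 5.32% of all genes. The list medians lay between -0.083 and 0.024 in LnCaP and between -0.083 and 0.060 in 22RV1, against -0.0014 and -0.0071 over all genes.

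HPGD encodes the dehydrogenase that inactivates prostaglandins. It stood at 4.97, 4.98 and 4.83 in the LnCaP nicotine arrays and 5.34, 5.85 and 6.42 in the LnCaP untreated arrays, with no overlap. The log2 fold change was -0.94 ± 0.22 (limma adjusted p = 0.0893, and adjusted p = 0.0261 with the replicate block). Its 3 other probe sets had values between -1.07 and -0.10. The LnCaP nicotine readings of HPGD ranked between 25.3% and 28.5% of the way up each array, and no detection call says whether they exceed background. In 22RV1, HPGD stood at 11.80, 11.66 and 11.58 in the nicotine arrays and 11.73, 11.72 and 11.26 in the untreated arrays, with a log2 fold change of 0.11 ± 0.22 (limma adjusted p = 0.999).

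The main genes of the eicosanoid route, and the receptor PLA2R1, were not called after nicotine in either line. Limma called 0.577% of all genes in LnCaP and 0% in 22RV1, so the lack of calls is no result about these genes. PTGS1 and PTGS2, the cyclooxygenases, had log2 fold changes of -0.12 and -0.036 in LnCaP and -0.050 and -0.042 in 22RV1. PTGES, a prostaglandin E synthase, was at -0.037 in LnCaP and -0.11 in 22RV1. The lipoxygenase genes ALOX5 and ALOX15 were at 0.024 and -0.18 in LnCaP and -0.0070 and 0.17 in 22RV1, and LTA4H, which makes leukotriene B4, was at 0.20 and 0.11. PLA2R1, the receptor that binds secreted phospholipases, was at -0.020 in LnCaP and -0.036 in 22RV1. The limma adjusted p of each of these genes was 0.669 or above in LnCaP and 0.999 in 22RV1.

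**Figure D4:**
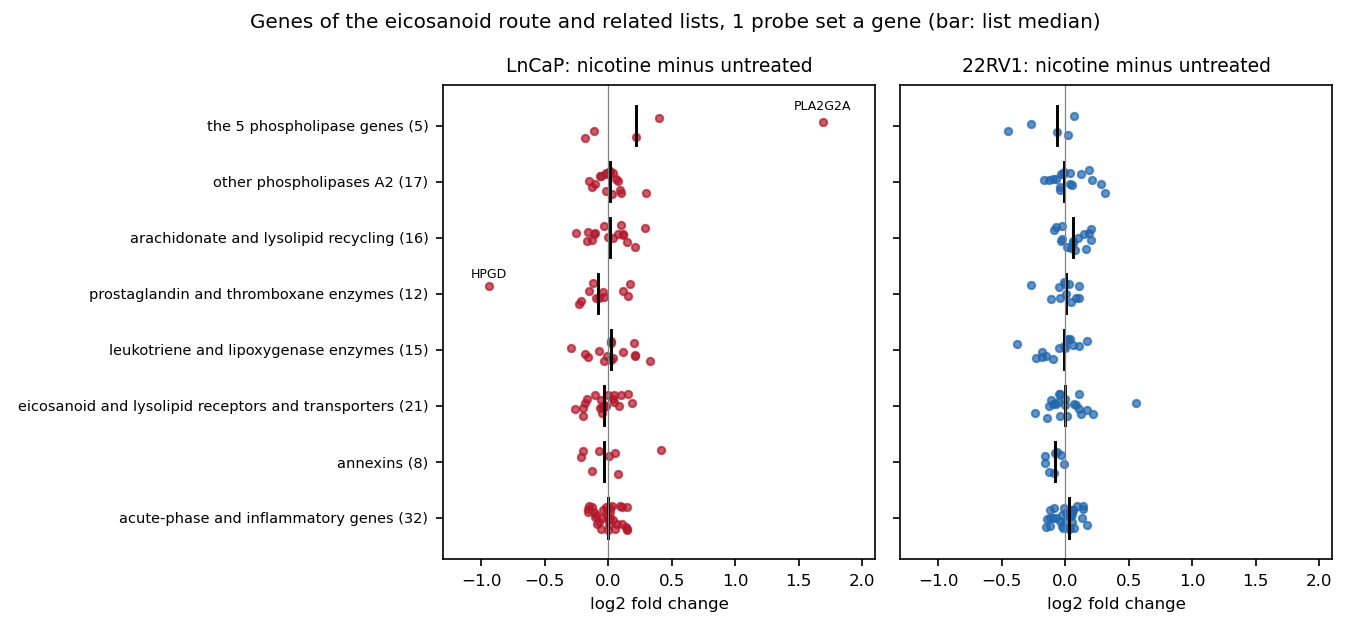
Log2 fold changes, nicotine minus untreated (horizontal axes), of the 5 phospholipase genes and of 7 related lists (rows, number of measured genes in brackets) in LnCaP on the left and 22RV1 on the right, with 1 point per gene and a bar at each list's median. PLA2G2A at 1.69 and HPGD at -0.94 stand at the ends of the LnCaP range.

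Of the list of other phospholipases A2, limma called 0 of 17 measured genes for nicotine in either line. Over all genes it called 0.577% in LnCaP and 0% in 22RV1, so this count is no result about the list. Of the 17 measured genes of that list, which includes the receptor PLA2R1, 9 had positive and 8 negative values in LnCaP, from -0.15 to 0.30. PLAAT4 and PLAAT1, relatives of PLAAT3, had the smallest p-values there, at 0.30 and -0.13, and did not pass (limma adjusted p = 0.306 and 0.667). PAFAH1B1, a subunit of the intracellular acetylhydrolase of platelet-activating factor, was at 0.21, and LPGAT1, a lysophosphatidylglycerol acyltransferase, at 0.29. Of the receptors and transporters, CYSLTR2 was at 0.19 and PTGIR, the prostacyclin receptor, at -0.18, and of the prostaglandin enzymes PTGES3 was at -0.15. CYP2J2 was at -0.29 and ALOX12B at 0.33. Among the annexins, calcium-dependent membrane-binding proteins, ANXA6 was at 0.42 and ANXA2 at -0.20. None of these passed (limma adjusted p = 0.332 to 0.632).

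PLA2G2A is known as an acute-phase gene, and limma called 0 of 32 other genes of that kind for nicotine in LnCaP, where it called 0.577% of all genes, so 0 of 32 is no result about the list. At an unadjusted p under 0.05 there was 1, against 12.2% of all genes. Of the 32 genes, 16 had positive and 16 negative values there, within -0.16 to 0.15, and the median was 0.00040. The smallest p-values were those of CEBPD (-0.16, limma adjusted p = 0.441) and TNF (0.15, limma adjusted p = 0.616). In 22RV1 the list had a median of 0.026 and a range from -0.15 to 0.17, and limma called 0 of its members, with 0 at an unadjusted p under 0.05.

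Between the untreated lines, 42 of the 121 related genes were called, against 47.3% of all genes. In LnCaP 28 were higher, against 25.1% of all genes, and 14 were lower, against 22.2%. With the replicate block 29 were higher, against 27.7% of all genes, and 22 were lower, against 24.2%, of 51.9% called in either direction. Of the other phospholipases A2, PLA2G3, a further secreted enzyme, was 33.0-fold lower in untreated LnCaP, at 5.18 ± 0.15, than in untreated 22RV1, at 10.22 ± 0.1 (SD, n = 3 each; limma adjusted p = 9.38e-11). PNPLA4, PLAAT4 and PNPLA3 were higher in LnCaP, by log2 differences of 1.59, 1.45 and 1.14. The other probe set of PNPLA4 was at 0.26. Of the recycling genes, ACSL1, an acyl-CoA synthetase, was higher by 3.56 and LPCAT1, a lysophosphatidylcholine acyltransferase, by 1.31. LPGAT1 (-1.78) and PAFAH1B3 (-1.39), a catalytic subunit of the intracellular acetylhydrolase, were lower. The limma adjusted p of each gene in this paragraph, on its probe set with the highest mean, was 0.000112 or below.

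Single genes downstream of arachidonic acid also differed between the lines, as is common on these arrays. Of 12 measured prostaglandin and thromboxane enzymes, 2 were called higher and 4 lower in LnCaP. Of 15 leukotriene and lipoxygenase enzymes, 5 were called higher and 1 lower. Over all genes 25.1% were higher and 22.2% lower. HPGD was 52.0-fold lower in untreated LnCaP, at 5.87 ± 0.54, than in untreated 22RV1, at 11.57 ± 0.27 (SD, n = 3 each; limma adjusted p = 1.04e-09). AKR1C3, which reduces prostaglandins as well as steroids, was 80.9-fold lower in untreated LnCaP, at 4.14 ± 0.077, than in untreated 22RV1, at 10.48 ± 0.84 (limma adjusted p = 5.29e-07). The synthase genes PTGDS (-0.84) and PTGES (-0.65) were lower in LnCaP too, and the other probe set of PTGES was at -1.92. The 2 genes of this list called higher were CBR1 (0.85) and the synthase gene TBXAS1 (0.76), named here after their values were seen. ALOX15 was 10.6-fold higher in untreated LnCaP, at 8.59 ± 0.053, than in untreated 22RV1, at 5.19 ± 0.047 (limma adjusted p = 1.01e-08), and CYP2J2, an arachidonate epoxygenase, was higher by 1.78 and MGST2 by 1.08. PTGS1, PTGS2, ALOX5, LTA4H and PLA2R1 did not pass between the lines (limma adjusted p = 0.0863 to 0.997). With the replicate block LTA4H did, at a log2 difference of -0.28 (adjusted p = 0.0372). No detection call says whether the low readings of AKR1C3, PLA2G3 and HPGD in LnCaP and of ALOX15 in 22RV1 exceed background. Their folds therefore hold for the deposited values only.

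Of the 21 measured receptors and transporters, 6 were called higher and 1 lower in LnCaP, against 25.1% and 22.2% of all genes. ABCC4, a transporter that exports prostaglandins among other substrates, was higher by 5.14, LPAR6 and LPAR2, receptors for lysophosphatidic acid, by 3.91 and 1.81, and ABCC1, a leukotriene C4 exporter, by 1.46. In untreated 22RV1 arrays LPAR6 ranked between 10.4% and 15.7% of the way up and ABCC4 between 31.2% and 37.7%, with no detection calls. LPAR2 also had a log2 fold change of 0.56 ± 0.12 for nicotine in 22RV1 that did not pass (limma adjusted p = 0.517). Of the 8 annexins, ANXA6 (0.80), ANXA11 (0.52) and ANXA7 (0.43) were higher and ANXA4 (-0.97) and ANXA2 (-0.40) lower in LnCaP. Other probe sets of these genes gave -0.20 for ANXA11, of opposite sign, and 0.096 for ANXA7. They gave -1.07 for ANXA4 and -0.38 to -0.19 for ANXA2. Of the 32 measured acute-phase and inflammatory genes, 4 were called higher and 2 lower. STAT3, a signal transducer of interleukin-6, was at 2.76, NFKB1 at 0.89, haptoglobin (HP) at 0.67 and CEBPD at -0.86. The other probe set of STAT3 was at 2.5 and that of CEBPD at -0.096. For annexins and acute-phase genes too, the shares over all genes were 25.1% higher and 22.2% lower.

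The genes nearest to PLA2G2A in pattern were found by the root mean square difference of log2 values over the 12 arrays. When each gene was centred on its mean over all arrays, which keeps the line difference, the nearest were ACP3 (prostatic acid phosphatase) at 0.421, DIO1 at 0.473, ADAM2 at 0.502, NRP1 at 0.511 and JAG1 at 0.576, where the spread of PLA2G2A around its own mean was 2.32. When each gene was centred within each line, the nearest were IL1RN (the interleukin-1 receptor antagonist) and CAMK2N1 at 0.399 each, ACP3 at 0.414, LRRC31 at 0.431 and TUBA1A at 0.438, against 0.659 for PLA2G2A itself. Their log2 fold changes in LnCaP were 0.76, 0.72, 1.07, 0.67 and 1.35. Among the members PLAAT3 was nearest over all arrays (1.85) and PLA2G7 farthest (3.72). Centred within each line, the 3 probe sets of PLA2G6 were nearest (0.581 to 0.604), PLAAT3 was at 0.61 and PLA2G7 was again farthest (0.777). A gene was taken as near because it differed in the same arrays, so these values describe the choice.

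**Figure D5:**
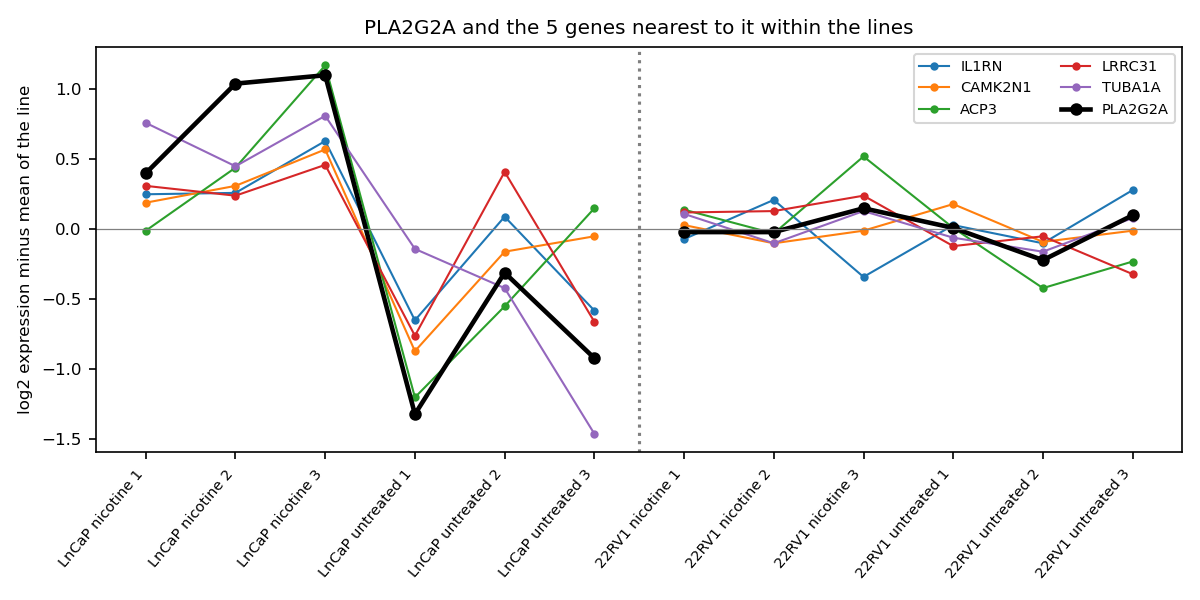
Log2 expression minus the mean of the line (vertical axis) for PLA2G2A and the 5 genes nearest to it within the lines, on each of the 12 arrays (horizontal axis). PLA2G2A runs from 0.40 to 1.10 in the LnCaP nicotine arrays and from -1.32 to -0.31 in the LnCaP untreated arrays, and stays within -0.22 and 0.15 in 22RV1.

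PLA2G2A lies in a cluster of secreted phospholipase genes on chromosome 1. The 5 nearest measured genes on each side in RefSeq order were PLA2G2E, OTUD3, RNF186, HTR6 and NBL1, and PLA2G5, PLA2G2D, PLA2G2F, CAMK2N1 and MUL1. For nicotine in LnCaP limma called 0 of the 10, against 0.577% of all genes, and with the replicate block 1, against 4.56% of all genes. It was CAMK2N1, an inhibitor of CaM kinase II (0.72 ± 0.18; adjusted p = 0.113, and adjusted p = 0.0114 with the block). The other secreted phospholipases of the cluster had values of -0.066 (PLA2G2E), -0.016 (PLA2G5), 0.058 (PLA2G2D) and 0.077 (PLA2G2F). Between the untreated lines limma called 3 of the 10, against 47.3% of all genes. CAMK2N1 was higher in untreated LnCaP than in untreated 22RV1, by 3.17 ± 0.18 (limma adjusted p = 4.11e-08). OTUD3 (-0.37, limma adjusted p = 0.0369) and NBL1 (-0.50, limma adjusted p = 0.0287) were lower in LnCaP. The 4 phospholipases of the cluster did not pass.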

How the data were processed

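TRIzol RNA was labelled with biotin and hybridised to Affymetrix arrays, per the labels' protocols. The authors deposited log2 expression values for 22277 probe sets on 12 arrays. Their normalization is not given in the sources used here, and the values were used as deposited, without filter. Gene names come from GEO's platform annotation, in which 19070 probe sets had 1 symbol, 1043 several and 2164 were unlisted. For gene lists, the probe set with the highest mean stood for a gene.

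Group means were fitted to all probe sets over the 12 arrays by lmFit and eBayes (limma 3.58.1, R 4.3.3; two-sided). P-values were adjusted over all probe sets by Benjamini-Hochberg, and calls were made at an adjusted p under 0.05. The median SE of a nicotine effect was 0.11, and the number of arrays limits the precision. The fit was tested on simulated arrays with independent noise, which does not cover deviations that arrays share.

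Same-numbered nicotine and untreated arrays deviated together (r from 0.225 to 0.599 in LnCaP and 0.454 to 0.640 in 22RV1, each over 0.1), so a fit with the number as a block was added. Arrays of different numbers had r from -0.515 to 0.27 in LnCaP and from -0.531 to 0.27 in 22RV1. The highest were between arrays numbered 1 and 2, and 0.27 in LnCaP exceeds the lowest same-numbered r there. The deviations thus set the arrays numbered 3 apart more than they mark 3 separate pairs. The replicate numbers come from the labels. Other settings were array weights, own arrays alone, quantile normalization, a dimness filter, 1 probe set per gene, a variance trend and left-out arrays.

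The members, lists and tests were chosen with earlier results of these data known. Named list genes were called genes (at most 4 by p), otherwise the smallest 2 p-values in LnCaP, plus 8 fixed eicosanoid genes. CBR1 and TBXAS1 were named outside this rule.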

Additional observations from a re-analysis of the deposited data

Results flagged for a closer look

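Among the members and the list genes named by rule, 5 had every same-numbered pair moving one way in LnCaP and the opposite way in 22RV1. How many of all genes do so was not counted, so nothing is read from this number. PLAAT3 was higher after nicotine in 3 of 3 LnCaP pairs and lower in 3 of 3 pairs of 22RV1, with a difference of effects of 0.68 ± 0.29 (SE). It was called with the replicate block and not without it, and no p is given because it contains the LnCaP contrast used in the choice of genes. PNPLA4 had a difference of 0.20 ± 0.17 and LPGAT1 of 0.31 ± 0.19. ABCC4 had a difference of -0.42 ± 0.28 and ANXA7 of 0.14 ± 0.11. The limma test of the difference did not pass for these 4 genes (adjusted p = 0.967, 0.900, 0.923 and 0.954 in that order). Of the chromosomal neighbours of PLA2G2A, OTUD3 was lower in every LnCaP pair and higher in every 22RV1 pair. Its difference of -0.50 ± 0.18 did not pass either (limma adjusted p = 0.712).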

How the results depend on the processing

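The PLA2G2A log2 fold change in LnCaP stayed between 1.46 and 1.96 and its line difference between 3.37 and 3.87 under every setting run, and the line difference passed in each. Its 22RV1 value, 0.071, did not pass in any setting and ran from -0.023 (without 22RV1 untreated replicate 2) to 0.14 without single arrays. The number of probe sets called for nicotine in LnCaP, 105, was 847 with the replicate block, 165 with array weights, 177 among brighter probe sets and 2 in the LnCaP arrays alone, and 1 to 134 without single arrays (1 without LnCaP nicotine replicate 2, 2 without LnCaP untreated replicate 1). For 22RV1, 0 became 8 with array weights and 0 to 1 without single arrays. For the difference of effects, 0 became 55 with the block, 1 with weights, 10 without the arrays numbered 3 and 0 to 1 without single arrays. The line comparison called 9729, and 5719 with 1 probe set per gene, where fewer were tested (8604 to 9911 without single arrays). The block changed the calls of PLAAT3 in LnCaP and of PLA2G2A and PLAAT3 in the difference of effects, contrasts used in choosing genes, and no other call of the 5 genes. Among the tested values of the 5 genes, the other sign changes were in PLA2G4A in 22RV1 (0.00068 with weights, 0.12 without 22RV1 nicotine replicate 1 or untreated replicate 3, lowest -0.28 without single arrays), PLA2G6 in 22RV1 (-0.068 and -0.064 without nicotine replicate 3, -0.024 and -0.021 without untreated replicate 2, -0.079 and -0.062 without the arrays numbered 3, for 204691_x_at and 210647_x_at, 210647_x_at up to 0.08 without single arrays) and PLA2G6 204691_x_at between the lines (-0.041 without 22RV1 untreated replicate 2, -0.0047 without LnCaP untreated replicate 1, highest 0.1). In the difference of effects, PLA2G4A (-0.044) was 0.17 without 22RV1 nicotine replicate 3 and 0.12 without 22RV1 untreated replicate 2, and PLA2G6 215938_s_at (-0.04) ran from 0.0084 to 0.091 in 4 settings. The cause was not tested. Signal over background is unknown for all values, which limits low readings most. Among them are PLA2G4A, the 22RV1 values of PLA2G2A, ALOX15, LPAR6 and ABCC4, and the LnCaP values of AKR1C3, PLA2G3, PLA2G7 and HPGD.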
